A study of Homo sapiens with 6 samples.

Results

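The transcripts of 9 nonsense-mediated decay factors, UPF1, UPF2, UPF3A, UPF3B, SMG1, SMG5, SMG6, SMG8 and SMG9, were followed in OVCAR8 cells after inhibition of the splicing factor SF3B1. The members were taken by gene symbol from the deposited table of 38637 genes, and all 9 were found and passed the filter on low values, which 16178 genes passed. OVCAR8 is a human ovarian cancer cell line, given in the labels as wild type. Poly(A) RNA was sequenced from 3 samples treated with DMSO, the solvent, and 3 treated with pladienolide B at 2 nM, each for 72 h. Both groups are the same line, and the labels do not say whether the 3 samples came from separate cultures, so the p-values measure only the spread between these samples.

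Nonsense-mediated decay removes mRNAs on which translation ends too early, and it also sets the level of many normal mRNAs. UPF1, an RNA helicase, gathers on the mRNA, and UPF2 with UPF3A or UPF3B links it to exon junction complexes, the protein marks that splicing leaves near exon borders. The kinase SMG1, held in check by SMG8 and SMG9, phosphorylates UPF1. Phosphorylated UPF1 is bound by SMG6, an endonuclease that cuts the mRNA near the stop codon, and by SMG5, which helps to bring in deadenylation and decapping. Several of these factors are encoded by mRNAs that are themselves decay targets, a feedback that keeps the pathway in balance. Pladienolide B binds the SF3b complex, which recognises the branch point of introns.

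The position of a stop codon relative to the last exon junction is among the features that the pathway reads. The stop codons of the members' own canonical transcripts (GENCODE release 44, hg38) are therefore shown here, 5′ to 3′ in the spliced mRNA. Capitals mark the stop codon.
UPF1: ctgtcccagtatTAAaaggtggcggcg
UPF2: gggaggagacgtTGAtccagcagcacg
UPF3A: gaagaggcagagTGAgtcactgcacgc
UPF3B: ggaggagaggagTGAtaagtccagatg
SMG1: acagcctgggtgTGAatggcaagacag
SMG5: aaggaaattggtTGAtactgaccccca
SMG6: gcccaggtgggcTGAgggagccacact
SMG8: gcagtaacacaaTAAgtgttttccagc
SMG9: cgcctgctggccTGAggccaaggagag

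UPF1 differed from the other 8 in that its stop codon lay before the last exon junction, with 3 bases between the stop and the junction. In the others the stop codon was in the last exon, ending from 10 bases after the last junction in UPF2 to 198 bases after it in SMG8. None of the 9 therefore had a junction more than 50 bases after its stop, and such a junction was found in 0.55% of the 18146 coding genes of the table with 2 or more exons in the canonical transcript. The 3′ untranslated regions ranged from 228 bases in SMG8 to 4709 in SMG1, with 3613 in SMG9, against a median of 1054 over 19154 coding genes of the table. SMG5 and SMG9 each had 1 complete upstream open reading frame in the 5′ untranslated region, and the other members had none. Exon numbers ran from 4 in SMG8 to 63 in SMG1. GENCODE lists transcripts of the nonsense-mediated decay class for UPF1, SMG1, SMG8 and SMG9, with 2 for UPF1 and 1 for each of the others. Such transcripts are listed for 38.9% of the coding genes of the table.

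The samples had 22621338 to 26130882 reads on genes. DMSO replicate 2 stood apart from the other DMSO samples, with a chi-square per degree of freedom of 7.82 and 7.74 against them, where counting alone gives about 1 and DMSO replicates 1 and 3 gave 2.01. The pairs of pladienolide B samples gave 3.21, 3.316 and 4.825. The ovarian marker PAX8 had 4011 to 4581 adjusted reads in the 6 samples and the keratins KRT7, KRT8 and KRT18 were abundant, but WT1 and MUC16 had at most 33.8. Of 7 markers of blood and endothelial cells, CD3E was at 0 in every sample and PTPRC reached at most 2.00, while CD68, also a lysosomal protein of other cells, made up most of the list's summed level, which ran from 1184 to 1360 in the DMSO samples and from 1589 to 1701 in the treated ones. Of the 8 epithelial and ovarian markers 2 rose and 2 fell, and of the 4 tested blood and endothelial markers 1 rose, and the part of these shifts in the results was not tested. In RNA from whole cultures, fewer cells with a transcript and less of it per cell cannot be told apart.

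Of the 9 factors, UPF1, SMG5 and SMG8 rose in pladienolide B, UPF3A, SMG1 and SMG6 fell, and UPF2, UPF3B and SMG9 did not pass the test. The changes were small, with log2 fold changes from -0.37 for SMG6 to 0.32 for SMG8, and 0 of the 9 changed 2-fold. Values are adjusted reads, which the authors had scaled to a common library size, and were tested by limma on log2(value + 1) with Benjamini-Hochberg adjustment over all 16178 genes, at an adjusted p below 0.05. The added 1 understates the fold changes of genes with few reads, and each of the 9 had at least 933 adjusted reads in every sample. With 1 value per gene and sample, correctly spliced and misspliced transcripts of the same gene cannot be told apart. Calls were common in this comparison. 47.6% of all tested genes were called, 22.4% as higher and 25.2% as lower, against 6 of the 9 members, 3 in each direction. The groups did not overlap for 7 of the 9 and for 55.3% of all genes. The median size of the log2 fold change was 0.25 over the members and 0.23 over all tested genes.

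**Figure D1:**
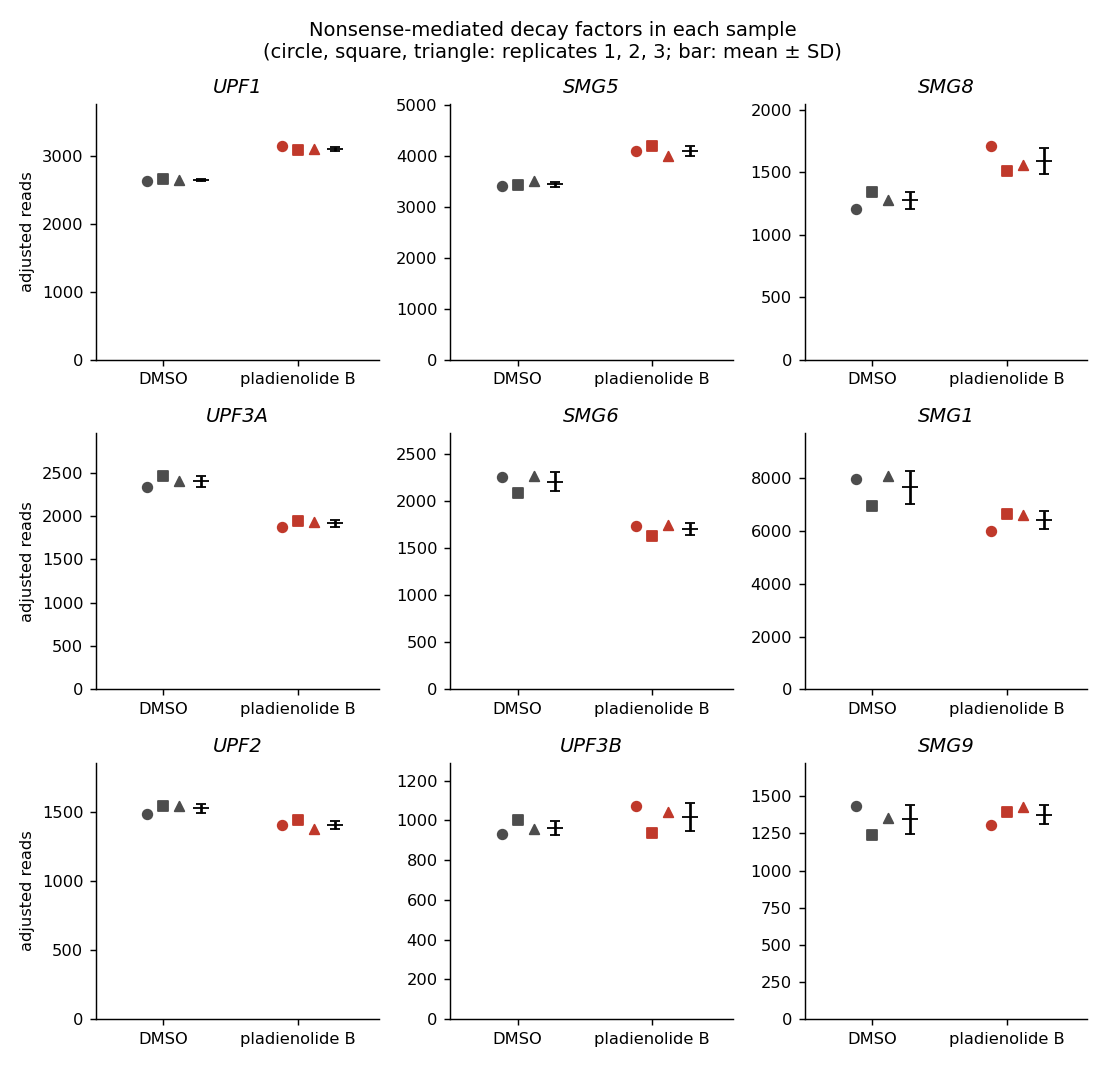
Adjusted reads (vertical axes, from 0) of the 9 factors in 3 DMSO and 3 pladienolide B samples, with 1 point per sample and the mean ± SD beside the points. UPF1, SMG5 and SMG8 in the top row are higher in every pladienolide B sample, UPF3A, SMG6 and SMG1 in the middle row are lower in every one, and in the bottom row UPF3B and SMG9 overlap between the groups.

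UPF1, the helicase at the centre of the pathway, lies on chromosome 19 (hg38, 18831405 to 18868230, + strand, stop codon at chr19:18866161-18866163). It had 2640, 2660 and 2653 adjusted reads in DMSO replicates 1 to 3 and 3144, 3089 and 3100 in pladienolide B. The DMSO samples were almost equal, with an SD of 10.4 (n = 3), and each pladienolide B sample lay above them. UPF1 rose to 117% of the DMSO level, or 0.23 on the log2 scale (standard error, SE, 0.04, limma adjusted p = 0.000218). UPF1 overlaps no other gene of the table.

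UPF2, the adaptor between UPF1 and the UPF3 proteins, lies on chromosome 10 (11920022 to 12043170, - strand, stop codon at chr10:11921298-11921300). Its values were 1488, 1548 and 1549 adjusted reads in DMSO and 1405, 1442 and 1381 in pladienolide B. No treated sample reached a DMSO sample, but the pladienolide B mean was 92.2% of the DMSO mean and the change did not pass after adjustment, at a log2 fold change of -0.12 (95% interval -0.22 to -0.01, limma adjusted p = 0.061).

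Of the UPF3 paralogs, which both bind UPF2, UPF3A fell and UPF3B did not pass the test. UPF3A, on chromosome 13 (114281598 to 114305817, + strand, stop codon at chr13:114304915-114304917), had 2334, 2465 and 2409 adjusted reads in DMSO and 1874, 1943 and 1937 in pladienolide B. Every treated sample was below every DMSO sample, and 79.8% of the DMSO level remained, or -0.32 on the log2 scale (SE 0.05, limma adjusted p = 1.96e-05). UPF3B, on the X chromosome (119805311 to 119853028, - strand, stop codon at chrX:119834878-119834880) and the more active of the pair in decay, had 933, 1001 and 956 adjusted reads in DMSO and 1075, 939 and 1040 in pladienolide B. These groups overlapped, since pladienolide B replicate 2 was lower than DMSO replicates 2 and 3, and the log2 fold change of 0.08 had a 95% interval of -0.05 to 0.21 (limma adjusted p = 0.321).

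The balance of the pair was read as the share of UPF3A in their summed adjusted reads, which does not depend on library size. It was 71.5%, 71.1% and 71.6% in DMSO and 63.5%, 67.4% and 65.1% in pladienolide B. The share was lower in each pladienolide B sample, with a difference of means of -6.05 percentage points, and the exact permutation test (two-sided) gave p = 0.1, the smallest that 3 samples against 3 can give. Its direction follows from the UPF3A and UPF3B values above, so the test is not a separate result. Reads are not corrected for length here, so the share is not the share of molecules.

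The kinase SMG1 lies on chromosome 16 (18804858 to 18926428, - strand, stop codon at chr16:18809569-18809571). It had the most reads of the 9, with 7960, 6937 and 8087 adjusted reads in DMSO and 6018, 6633 and 6594 in pladienolide B. All treated samples were below all DMSO samples, but DMSO replicate 2 was close to the treated samples. SMG1 fell to 83.7% of the DMSO level, or -0.25 on the log2 scale (SE 0.06, limma adjusted p = 0.00113). DMSO replicate 2 was 0.21 lower than the other DMSO samples on the log2 scale, where the median size of this difference over all tested genes was 0.12. Without that sample the log2 fold change of SMG1 was -0.32. This was the largest fall with 1 sample left out, and the smallest was -0.21, without pladienolide B replicate 1. The call was lost, at an adjusted p of 0.0525, if the variance trend was left out of limma.

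SMG1 has pseudogene copies on chromosome 16 that could share its reads. Of the 100-base windows of its canonical transcript, 10.5% occur unchanged in a transcript of SMG1P1 to SMG1P7. Of these 7 copies 6 were in the table, with 19.8 to 138 adjusted reads each in the 6 samples. By limma 0 of the 6 passed the test, 1 had an unadjusted p below 0.05, and edgeR and DESeq2 called 0 as well. Together they made up 4.76%, 5.42% and 4.62% of the reads of SMG1 and its copies in DMSO and 6.04%, 5.49% and 5.78% in pladienolide B. The sum of SMG1 and its copies changed by -0.24 on the log2 scale (limma adjusted p = 0.00136). Since the copies made up at most 6.04% of this sum, it could hardly differ from SMG1 alone. The part of shared reads in the value of SMG1 was not tested. How the counting treated reads that match several genes is not given in the sources used here.

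Of the partners of the kinase, SMG8 rose and SMG9 did not pass the test. SMG8, which restrains SMG1 activity, lies on chromosome 17 (59210035 to 59215230, + strand, stop codon at chr17:59215000-59215002) and had 1205, 1340 and 1279 adjusted reads in DMSO and 1708, 1512 and 1557 in pladienolide B. Each treated sample was above each DMSO sample, and SMG8 rose to 125% of the DMSO level, or 0.32 on the log2 scale (SE 0.06, limma adjusted p = 0.000253). It was the largest rise among the 9. SMG9, which binds SMG1 together with SMG8 and lies on chromosome 19 (43727983 to 43754962, - strand, stop codon at chr19:43731596-43731598), had 1438, 1242 and 1354 adjusted reads in DMSO and 1306, 1397 and 1427 in pladienolide B. Those ranges overlapped, and the log2 fold change was 0.04 with a 95% interval of -0.09 to 0.16 (limma adjusted p = 0.66). Its sign turned, to -0.02, without DMSO replicate 2.

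SMG5 and SMG6, which act on phosphorylated UPF1, went in opposite directions. SMG5, the adaptor to deadenylation and decapping, lies on chromosome 1 (156249224 to 156291516, - strand, stop codon at chr1:156250587-156250589). It had 3404, 3420 and 3502 adjusted reads in DMSO and 4094, 4188 and 4008 in pladienolide B. All treated samples were above all DMSO samples, and SMG5 rose to 119% of the DMSO level, or 0.25 on the log2 scale (SE 0.04, limma adjusted p = 9.09e-05). TMEM79 overlaps it on the opposite strand over 8585 bases and had means of 102 and 108 adjusted reads in DMSO and pladienolide B. The part of this neighbour in the value of SMG5 was not tested.

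SMG6, the endonuclease, lies on chromosome 17 (2059839 to 2303836, - strand, stop codon at chr17:2061492-2061494). It had 2258, 2088 and 2266 adjusted reads in DMSO and 1736, 1632 and 1750 in pladienolide B. Every treated sample was lower, 77.4% of the DMSO level remained, and the change of -0.37 on the log2 scale (SE 0.05, limma adjusted p = 1.54e-05) was the largest fall among the 9. HIC1 and SRR lie on the opposite strand within or at the edge of SMG6, with overlaps of 3403 and 466 bases. HIC1 fell, with a change of -0.41 on the log2 scale (limma adjusted p = 0.000141) from a mean of 886 to 666 adjusted reads, and SRR rose by 0.25 (limma adjusted p = 0.00291). Whether reads were assigned by strand is not given in the sources used here, and the part of these neighbours in the value of SMG6 was not tested.

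SMG6 made up 39.9%, 37.9% and 39.3% of the summed adjusted reads of SMG5 and SMG6 in DMSO and 29.8%, 28.03% and 30.4% in pladienolide B. This share, chosen after the values were seen, had a difference of means of -9.62 percentage points and is given as a description with no test, since a rise of SMG5 and a fall of SMG6 fix its direction.

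**Figure D2:**
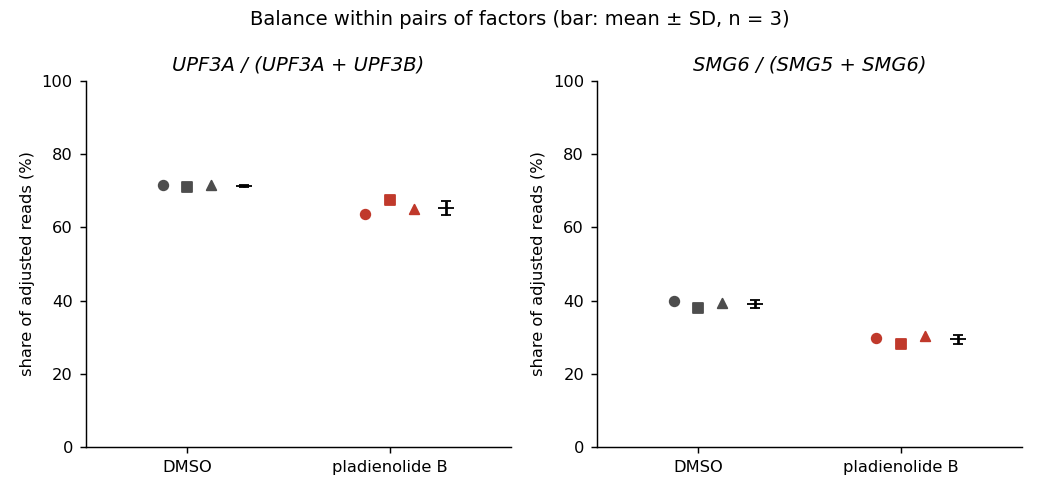
Share of UPF3A in the adjusted reads of UPF3A and UPF3B (left) and of SMG6 in those of SMG5 and SMG6 (right), in percent on axes from 0, with 1 point per sample and the mean ± SD of 3 samples. In both panels each pladienolide B sample lies below each DMSO sample, with means of 65.3% against 71.4% for UPF3A and 29.4% against 39.0% for SMG6.

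Among all tested genes, the size of the change of SMG6 reached or exceeded that of 70.0% and the size for SMG9 that of 8.98%, and the other members lay between them.

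**Figure D3:**
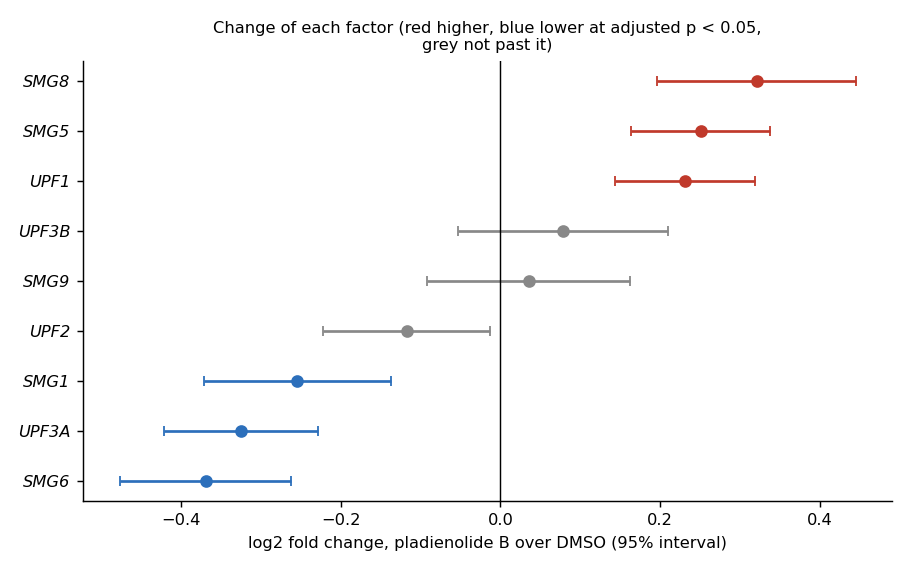
Change in pladienolide B relative to DMSO, as log2 (horizontal axis), for the 9 factors, with 95% intervals from limma. SMG8, SMG5 and UPF1 lie to the right of 0, SMG1, UPF3A and SMG6 lie to the left, and the intervals of UPF3B and SMG9 cross 0.

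To compare levels between genes, whole reads recovered from the adjusted values were divided by gene length and by the library size times its TMM normalisation factor (RPKM). The length was that of each gene's merged exons in GENCODE release 44. That release holds 26990 of the symbols among the 38637 genes, so the reads may have been counted on other gene models. In DMSO, SMG5 was the most abundant of the 9 at 26.5 ± 0.40 (SD, n = 3), followed by UPF3A at 17.1 ± 0.46, UPF3B at 15.5 ± 0.56, SMG8 at 13.9 ± 0.74, SMG1 at 12.4 ± 1.02, UPF1 at 12.1 ± 0.05, UPF2 at 10.6 ± 0.24, SMG6 at 8.51 ± 0.39 and SMG9 at 6.94 ± 0.51. SMG1 and UPF1 overlapped in that order, and no other neighbours did. In pladienolide B, SMG5 again led, at 31.5 ± 0.70 RPKM (SD, n = 3). UPF3A came after SMG8, UPF3B and UPF1, at 13.6 ± 0.27 against 17.4 ± 1.12, 16.4 ± 1.15 and 14.2 ± 0.13. SMG6 was the lowest at 6.59 ± 0.25 and overlapped with SMG9 at 7.11 ± 0.33. SMG8 and UPF3B overlapped as well, as did SMG1 at 10.4 ± 0.56 and UPF2 at 9.79 ± 0.21. The order depended on the length used. With the canonical transcript, which for UPF3A has 2370 bases against 5755 in the merged exons, UPF3A led in DMSO at 41.4 ± 1.12 RPKM, above SMG5 at 30.8 ± 0.47 (SD, n = 3). In pladienolide B, SMG5 led under this length as well, at 36.7 ± 0.81 RPKM against 33.0 ± 0.66 for UPF3A (SD, n = 3), and SMG9 in place of SMG6 was the lowest. This alternative was chosen after the data were seen.

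The members that rose and those that fell had overlapping ranges of exon number, span and 3′ untranslated region. For the span this rested on UPF3A alone. These are few genes, members that did not pass are left out, and a link of structure with direction was not tested. UPF1, SMG5 and SMG8, which rose, had 24, 22 and 4 exons and spans of 36272, 33602 and 5196 bases. UPF3A, SMG1 and SMG6, which fell, had 10, 63 and 19 exons and spans of 24217, 121549 and 243943 bases. The 3′ untranslated regions were 1713, 1363 and 228 bases in the first group and 900, 4709 and 1649 in the second, so that these ranges overlapped.

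Over the 6 samples, the genes most like SMG8 and SMG6, the members with the largest rise and fall, were sought by Pearson correlation of log2(value + 1), among 12079 other genes with a mean of at least 100. For SMG8 these were SRXN1 (r = 0.995), SSR2 (0.994) and KDM5A (0.994). For SMG6 they were FKBP9 (r = 0.999), WDFY2 (0.998) and MBD5 (0.998). Correlations above 0.99 were reached by 10 genes for SMG8 and by 59 for SMG6. They describe 6 libraries in 2 groups that all of these genes share, and a difference between the groups is part of each r.

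The exon junction complex, through which the pathway can recognise a premature stop, and proteins bound to it were described by a list of 11 genes, all tested. By limma 8 rose and 0 fell, where 22.4% of all genes rose, and the median log2 fold change was 0.22 against -0.004 over all tested genes. 1 gene was lower at an unadjusted p below 0.05, and edgeR and DESeq2 likewise called 8 higher and 0 lower. RNPS1, which joins the complex to splicing regulators, went from 5808 ± 151 to 7247 ± 190 adjusted reads (SD, n = 3), or 0.32 on the log2 scale (limma adjusted p = 6.2e-06). The core helicase EIF4A3 went from 3623 ± 42.8 to 4399 ± 109 (SD, n = 3), or 0.28 on the log2 scale (limma adjusted p = 2.92e-05). The core subunits MAGOH, MAGOHB and RBM8A, named after their values were seen, did not pass, with log2 fold changes of -0.01, -0.24 and 0.02. Without the variance trend of limma 5 of the 11 were higher, and with 1 sample left out 6 to 8 were.

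Of 14 further factors that act in the pathway or at the stop codon, 13 were tested, and 6 rose, 3 fell and 4 did not pass. Over all tested genes 22.4% rose and 25.2% fell. NCBP1, a subunit of the nuclear cap-binding complex, rose from 1537 ± 37.0 to 2158 ± 77.1 adjusted reads (SD, n = 3), or 0.49 on the log2 scale (limma adjusted p = 4.02e-07). Its partner NCBP2, which holds the cap, rose as well, with a change of 0.295 on the log2 scale (limma adjusted p = 8.83e-05). The median of the list was 0.07. NBAS, which acts with the pathway at the endoplasmic reticulum, fell from 1110 ± 90.7 to 733 ± 9.42 adjusted reads (SD, n = 3), or -0.60 on the log2 scale (limma adjusted p = 1.05e-06). MOV10, a helicase that associates with UPF1, fell as well, with a change of -0.24 on the log2 scale (limma adjusted p = 0.000157).

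A list of 18 transcripts known to be sensitive to nonsense-mediated decay was written to see how its targets moved. All 18 were tested, 10 rose, 5 fell and 3 did not pass, where 22.4% of all tested genes rose and 25.2% fell. The median log2 fold change was 0.16, against -0.004 over all tested genes. MAP3K14, a kinase of noncanonical NF-kB signalling, went from 614 ± 29.1 to 950 ± 51.7 adjusted reads (SD, n = 3), or 0.63 on the log2 scale (limma adjusted p = 6.63e-07). SNHG1, a snoRNA host transcript, rose by 0.36 (limma adjusted p = 5.71e-06). The other snoRNA host transcripts on the list, named after their values were seen, all rose as well and are among the 10. Their log2 fold changes were 0.12 for GAS5, 0.34 for SNHG12, 0.39 for SNHG15 and 0.13 for ZFAS1. GAS5 was close to the threshold (limma adjusted p = 0.048). CARS1, the cysteinyl-tRNA synthetase and also a target of ATF4, fell from 2239 ± 344 to 1312 ± 28.04 (SD, n = 3), or -0.76 on the log2 scale (limma adjusted p = 8.29e-07). GADD45B, a stress-inducible gene, fell, with a change of -0.42 on the log2 scale (limma adjusted p = 2.2e-05). The stress factor ATF4 and genes downstream of it on the list, named after their values were seen, went both ways. ATF4, ASNS and CARS1 fell, with log2 fold changes of -0.36, -0.94 and -0.76, while DDIT3 rose by 0.60 (limma adjusted p = 0.000812) and ATF3 did not pass, at 0.19 (limma adjusted p = 0.347). DMSO replicate 2 was the lowest DMSO sample for all 5, as for ASNS with 708 adjusted reads against 1188 and 1146 in DMSO replicates 1 and 3.

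**Figure D4:**
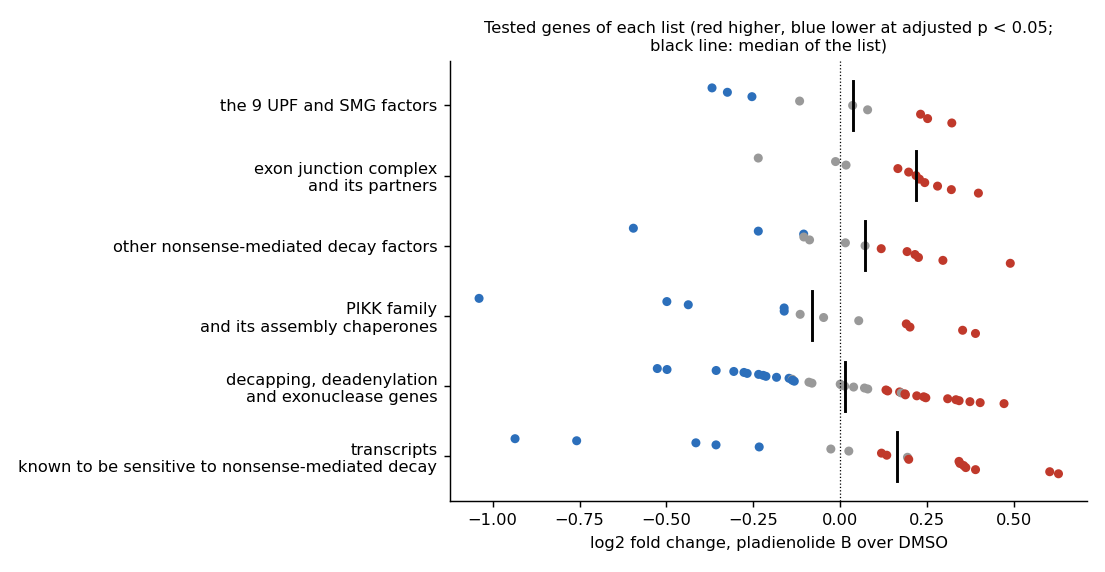
Change in pladienolide B relative to DMSO, as log2 (horizontal axis), for every tested gene of the 9 factors and of 5 further lists, 1 point per gene, with a black line at each list's median. The 9 factors spread to both sides of 0, while 8 of the 11 exon junction complex genes lie to the right and pass the test.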

How the data were processed

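RNA-seq of 6 OVCAR8 samples was used. The paper's methods name hisat2 and hg38 for the alignment of trimmed reads. The submitters' processing notes name HISAT2, HTSeq 0.12.4, DESeq2 and hg19, with no roles given. Of 26990 symbols shared with GENCODE release 44, 100.0% had a position overlapping the hg38 one. The authors deposited 1 signal per gene and sample, read counts adjusted to a common library size. The deposited table also holds a log2 fold change, p-value and q-value per gene, which were not used. The signal matched the quantile adjustment of edgeR (dispersion 0.0027). Undoing it gave 96804 values of at least 10 reads, and 99.998% of them were whole within 0.02.

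limma 3.58.1 (variance trend, log2(value + 1), two-sided) was run on the 16178 genes that filterByExpr of edgeR 4.0.16 kept (10 reads in 3 samples, 15 in total). As planned for adjusted values, this replaced a count test as the main one. edgeR's quasi-likelihood test and DESeq2 1.42.0 on the recovered reads, other filters, pseudocounts and replicate settings were alternatives. Scripts were tested on simulated data. Members and lists were chosen with earlier results of these data known. From each further list the 2 genes with the smallest adjusted p in each direction were named, and the 3 genes most like the members with the largest rise and fall. Samples with the same number did not deviate together (correlations -0.10, -0.07 and 0.04), so no pairing was used. 1 planned result is not reported here.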

Additional observations from a re-analysis of the deposited data

How the results depend on the processing

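All alternatives were planned except those for the share of SMG6 and the length behind the RPKM levels, which were chosen after seeing the data. The 6 calls among the 9 factors held with edgeR (TMM or RLE factors), DESeq2, no filter, a pseudocount of 0.1, the replicate block and each sample left out, and 5 remained without limma's variance trend, where SMG1 had an adjusted p of 0.0525. Of 118 values of single members under alternatives, 116 kept their direction and side of the threshold, and the other exception was SMG9, at -0.02066 without DMSO replicate 2 (range 0.08505 to -0.02066 with 1 sample left out). All 234 values of the other named genes kept both. Over all genes 6381 to 7836 calls were made, against 7695, and 6568 to 7836 with 1 sample left out. Samples with the same replicate number shared only that number, and with it as a replicate block 7349 genes were called. The difference in the UPF3A share lay between -7.09 and -5.15 percentage points with 1 sample left out and was -6.05 with recovered reads. Among the lists, the exon junction complex, with 8 higher as reported, had 5 higher without the variance trend and 6 without DMSO replicate 3. It had 7 higher without DMSO replicate 1, pladienolide B replicate 1 or pladienolide B replicate 3. It had 1 lower with the replicate block or without DMSO replicate 1, and 1 SMG1 pseudogene was lower without the variance trend. Over all 13 alternatives the transcripts sensitive to decay had, with the reported count in parentheses, 7 to 10 higher (10) and 4 to 5 lower (5), the further decay factors 5 to 7 higher (6) and 2 to 4 lower (3), the decapping, deadenylation and exonuclease genes 10 to 15 higher (14) and 9 to 13 lower (13), and the kinases and chaperones 4 higher (4) and 4 to 5 lower (5). The median over all genes shifted by at most 0.01 on the log2 scale between settings. The interval of UPF2 excluded 0, and its call was lost to the adjustment over 16178 genes.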

Other observations

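SMG1 belongs to the family of PI3-kinase-related kinases, whose members are folded by the TTT and R2TP chaperones. Of a list of 12 such kinases and chaperone subunits, all tested, 4 rose, 5 fell and 3 did not pass by limma. The median log2 fold change was -0.08. Over all tested genes 22.4% rose and 25.2% fell. PIH1D1, an R2TP subunit, had 1296, 1343 and 1389 adjusted reads in DMSO and 672, 648 and 638 in pladienolide B, which is 48.6% of the DMSO level or -1.04 on the log2 scale (SE 0.06, limma adjusted p = 4.01e-10). ATM, the DNA double-strand break kinase, fell to 70.8% of the DMSO level, or -0.50 on the log2 scale (limma adjusted p = 6.78e-07). The TTT subunits TTI1 and TTI2 rose by 0.39 (limma adjusted p = 1.13e-05) and 0.35 (limma adjusted p = 0.000481).

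Of 37 genes for decapping, deadenylation and exonucleases, which take over once a transcript is committed to decay, 14 rose, 13 fell and 10 did not pass by limma. Over all tested genes 22.4% rose and 25.2% fell. The exosome subunits EXOSC7 and EXOSC2 rose by 0.47 (limma adjusted p = 5.42e-06) and 0.40 (limma adjusted p = 4.62e-06). The deadenylases CNOT8 and CNOT6 fell, with log2 fold changes of -0.50 (limma adjusted p = 3.86e-07) and -0.31 (limma adjusted p = 4.91e-05). The median of the list was 0.01.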
